A study of Mus musculus with 6 samples.

Results

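Amino acid and peptide transporters were examined in the intestine of Apc Min/+ mice with and without Sirt7. The genes were taken by symbol from the solute carrier (Slc) families 1, 3, 6, 7, 15, 36, 38 and 43, which gave 60 of the 20312 rows of the deposited table. Of these rows, 58 were carriers or carrier subunits, and the other 2, Slc7a6os and Slc36a1os, are neighbouring transcripts that share only the symbol. RNA was sequenced from intestine of 5-month-old mice whose strain is given as 129. The control group held 3 libraries of Apc Min/+ mice, which carry a truncating germline allele of Apc, and the knockout group held 3 libraries of Apc Min/+; Sirt7 -/- mice, so that all 6 libraries shared the Apc allele. The segment of intestine, its adenoma content and the number of animals behind each group are not given in the labels. Replicates may thus be technical, and the p-values cover only the spread among these 6 libraries.

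Dietary protein is taken up in the small intestine as free amino acids and as short peptides. Carriers of the brush border bring them into the absorptive enterocyte, carriers of the basolateral membrane pass them on to the blood, and several carriers work only as a pair of a heavy chain and a light chain. Growing cells use another set, which imports glutamine, essential amino acids and cystine, and part of that set is known to be induced by the transcription factor ATF4 when amino acids are short.

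Values are normalised reads, that is, reads over the size factor of their library, with no correction for gene length unless a value is given per kilobase. Library depth ranged from 24987313 to 29603348 reads. Differences are knockout minus control on the log2(value + 1) scale with their SE, and a gene was called at a limma adjusted p under 0.05 over all 16600 tested genes. Sirt7 was low in all 3 knockout libraries (2173 ± 64.5 in control and 228 ± 11.1 in knockout, SD, n = 3), with a log2 difference of -3.25 ± 0.07. Over all tested genes 62.5% were called, 31.6% higher and 30.9% lower, so a call by itself sets no gene apart. Markers of absorptive enterocytes were lower in knockout, all 10 of 10, with a median log2 difference of -0.93 and a range of -1.51 to -0.28. All 10 markers of crypt and cycling cells were higher (median 1.23). In bulk tissue, fewer cells of a type and less RNA per cell cannot be told apart, and the part of these markers in the results below was not tested.

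Carriers of the absorptive epithelium were lower without Sirt7, and carriers linked to growth were higher. Of the 9 absorptive carriers 8 fell and 1 rose, with a median log2 difference of -0.70, where 30.9% of all tested genes fell. The 8 that fell all had a mean of at least 1000 normalised reads, and 50.5% of all genes at that level fell. Of the 10 growth-linked carriers 9 rose and 1 fell, with a median of 1.19, where 31.6% of all tested genes rose. The median over all tested genes was 0.01. Summed per kilobase of exon, the absorptive carriers stood at 29304 to 30023 in the control libraries and 18088 to 18305 in the knockout libraries, and the growth-linked carriers at 932.7 to 933.8 and 1443 to 1467. The ratio of the first sum to the second was 31.4 to 32.2 in control and 12.4 to 12.6 in knockout. The lengths behind these sums join all annotated exons of a gene. Both lists were drawn up by role, with earlier results of these data known.

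**Figure D1:**
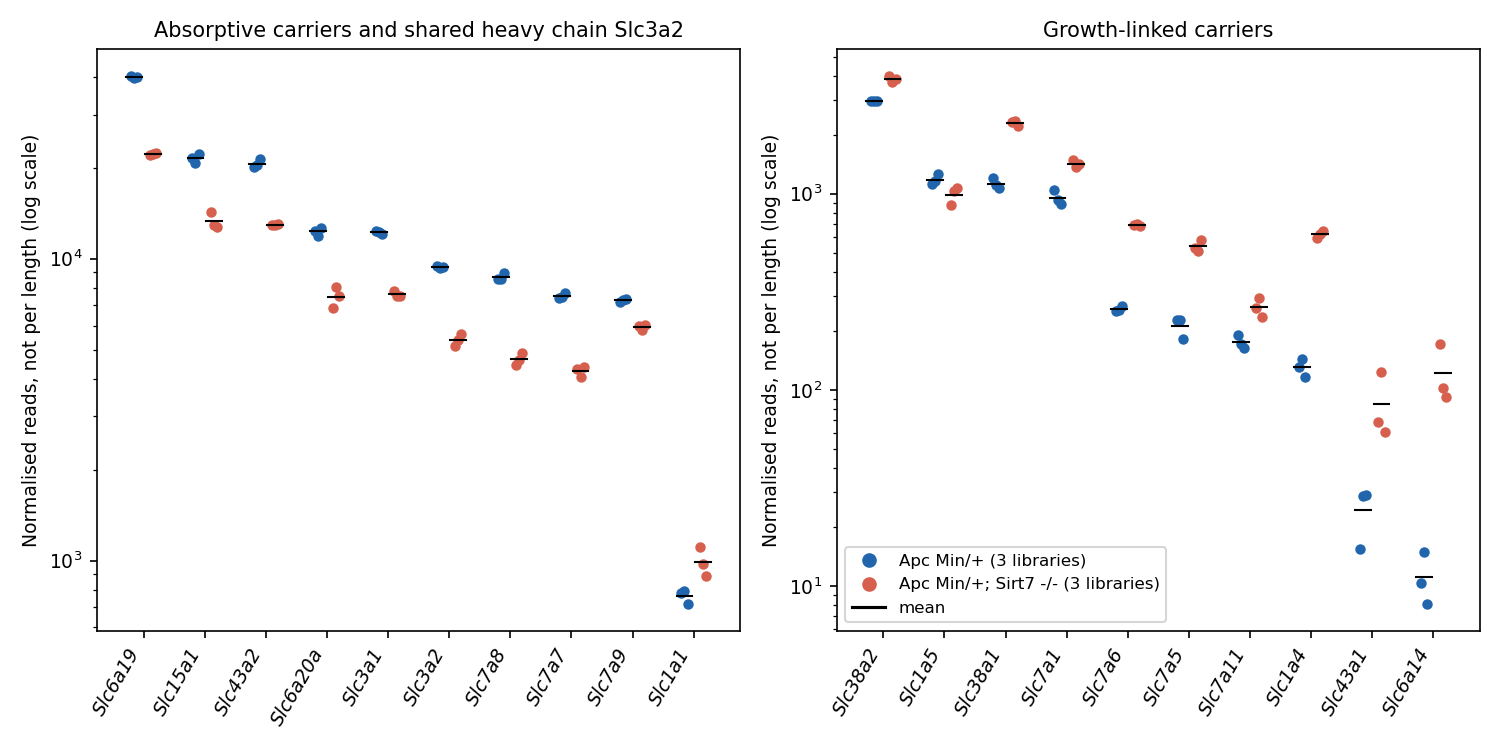
Normalised reads (log scale, not per length) of the absorptive carriers with the shared heavy chain Slc3a2 (left) and of the growth-linked carriers (right) in each of the 3 control (blue) and 3 knockout (red) libraries; black lines are group means. Slc1a1 is the absorptive carrier that lies higher in knockout, and Slc1a5 the growth-linked carrier that lies lower.

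Among the apical carriers, Slc6a19 encodes B0AT1, the main sodium-coupled carrier of neutral amino acids in the small intestine (chromosome 13, 73679745 to 73704865, minus strand, mm10). It stood at 40378, 39715 and 39855 in the control libraries and 22112, 22230 and 22442 in the knockout libraries. The groups lay far apart compared with their spread, and 55.7% of the control mean remained (log2 difference -0.84 ± 0.03, limma adjusted p = 5.69e-16). Slc15a1, the proton-coupled carrier PepT1 for dipeptides and tripeptides (chromosome 14, 121459621 to 121505252), held 21602, 20798 and 22292 in control and 14258, 12886 and 12701 in knockout. No knockout library reached the lowest control library, and 61.6% remained (-0.70 ± 0.04). Slc6a20a, a carrier of proline and other imino acids (chromosome 9, 123634770 to 123678885), fell from 12318 ± 374 to 7489 ± 586 (SD, n = 3; log2 difference -0.72 ± 0.05). Its exons overlap those of Ccr9 on the opposite strand, a lymphocyte receptor gene that fell from 421 to 94.3, and without a stated strand setting reads of shared bases cannot be told apart. Its overlaps with Ccr9 and 2 further opposite-strand genes summed to 607 of its 4084 exonic bases. All 5 T cell markers fell too (summed level 2919 to 3168 in control and 868 to 998 in knockout), and their part in the fall of Slc6a20a was not tested. Slc6a20b, a close relative of Slc6a20a, fell from 2099 ± 85.6 to 1395 ± 116 (-0.59 ± 0.06), and the separate values of the pair are uncertain. Of the 8538 exonic bases of Slc6a20b, 1800 overlap Sacm1l on the opposite strand, which was not called (3303 in control and 3328 in knockout).

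The pair that takes up cystine and the cationic amino acids arginine and lysine fell by unequal amounts. Its heavy chain gene is Slc3a1, whose product rBAT is needed to bring the light chain to the brush border (chromosome 17, 85028376 to 85064236). It overlaps Prepl, which was called slightly higher (0.22). Slc3a1 held 12339, 12211 and 12101 in control and 7814, 7512 and 7546 in knockout, a log2 difference of -0.68 ± 0.04. Its light chain gene Slc7a9 (chromosome 7, 35448796 to 35466036) held 7207, 7267 and 7348 in control and 5986, 5818 and 6050 in knockout, a smaller log2 difference of -0.29 ± 0.04. The 95% intervals were -0.76 to -0.60 for Slc3a1 and -0.37 to -0.21 for Slc7a9. Slc7a9 was called with the deposited size factors (limma adjusted p = 8.9e-07) but not under quantile normalization (-0.03, limma adjusted p = 0.54) or with every library scaled to the same total (-0.04, limma adjusted p = 0.44). With the same total for every library the median over all tested genes was 0.26. Per kilobase of exon, the ratio of Slc3a1 to Slc7a9 was 2.02, 1.98 and 1.94 in the control libraries and 1.54, 1.52 and 1.47 in the knockout libraries. The 2 groups did not overlap in this ratio (exact permutation test, two-sided, p = 0.1, the smallest value that 3 against 3 libraries allow).

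Slc1a1, the carrier of glutamate and aspartate known as EAAT3, went the other way (chromosome 19, 28835049 to 28913960). It held 780.5, 793 and 716 in control and 1108, 977 and 886 in knockout, and rose by 0.37 ± 0.08 on the log2 scale (limma adjusted p = 0.00024). Its lowest knockout library lay above its highest control library. Of its 8257 exonic bases, 2631 overlap 4430402I18Rik on the opposite strand, which was not called (96.8 in control and 78.5 in knockout). Per kilobase Slc1a1 was the lowest of the absorptive carriers in both groups, at 92.4 ± 5.00 in control against 7987 ± 69.7 for Slc6a19.

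All 3 basolateral carriers fell. Slc7a8, the light chain LAT2 that exchanges neutral amino acids (chromosome 14, 54722209 to 54781946), held 8566, 8560 and 8931 in control and 4442, 4630 and 4874 in knockout (log2 difference -0.90 ± 0.04). Slc7a7, the light chain y+LAT1 that exports cationic amino acids (chromosome 14, 54369442 to 54417780), held 7408, 7490 and 7687 in control and 4302, 4053 and 4391 in knockout (-0.83 ± 0.04). Slc43a2, the carrier LAT4 through which essential neutral amino acids leave the cell (chromosome 11, 75531694 to 75577575), held 20049, 20426 and 21392 in control and 12921, 12951 and 12993 in knockout (-0.67 ± 0.04). In all 3 genes the groups were separate, and the largest limma adjusted p was 1.98e-13. Slc16a10, a basolateral carrier of aromatic amino acids from another family, fell from 1837 ± 47.5 to 1074 ± 38.8 (log2 difference -0.77 ± 0.06).

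Transcripts of proteins that work beside these carriers were mostly lower. The 18 tested companion genes encode brush border peptidases, carrier partners and the ion transport that drives uptake. Of these, 15 fell, 1 rose and 2 did not pass (median log2 difference -0.77), where 30.9% of all tested genes fell and 31.6% rose. Each had a mean of at least 1000 normalised reads, and of all genes at that level 50.5% fell and 26.2% rose. Atp1b1, a subunit of the sodium pump, which maintains the sodium gradient that drives uptake, fell by 0.76 ± 0.03. The brush border peptidases Anpep and Mep1b fell by 1.08 and 0.89, the cytosolic dipeptidase Cndp2 by 0.90, and Slc9a3r1, a scaffold of brush border transporters, by 0.96. Mep1a, the other meprin subunit, was the member that rose (0.58 ± 0.10, limma adjusted p = 0.00073).

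Carriers of large neutral amino acids in the growth-linked list, Slc7a5, Slc7a6 and Slc43a1, rose. Slc7a5 encodes LAT1, the light chain that imports leucine and other large neutral amino acids (chromosome 8, 121881150 to 121907694). It held 226, 225.5 and 182 in control and 529, 510.2 and 579 in knockout, a log2 difference of 1.35 ± 0.11 (limma adjusted p = 1.79e-10). Slc7a6, the light chain y+LAT2 (chromosome 8, 106168857 to 106198706), held 252, 255 and 268 in control and 691, 699.8 and 684 in knockout (1.42 ± 0.09). Both light chains were more than doubled in every knockout library relative to the control mean. Slc43a1, the uniporter LAT3, rose from 24.5 ± 7.82 to 84.2 ± 33.9 (1.72 ± 0.31), with 1 knockout library at 123.0 and the others at 68.4 and 61.0.

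Carriers of small neutral amino acids and glutamine rose by unequal amounts. Slc1a4, the carrier ASCT1 of alanine, serine, cysteine and threonine (chromosome 11, 20302180 to 20332713), held 131, 144 and 116 in control and 594, 620.2 and 642 in knockout. This was a 4.75-fold difference of means (log2 difference 2.24 ± 0.11, limma adjusted p = 4.31e-14). Slc38a1, the glutamine carrier SNAT1 (chromosome 15, 96571418 to 96642913), held 1208, 1101 and 1069 in control and 2312, 2348 and 2214 in knockout (1.03 ± 0.06). Slc38a2, the related carrier SNAT2, rose from 2971 ± 7.37 to 3857 ± 132 (0.38 ± 0.04). Slc38a5, another glutamine carrier of this list, was not analysed here. Slc6a14, a broad carrier of neutral and cationic amino acids that is found in the distal gut and in tumours (chromosome X, 21714896 to 21742355), held 10.3, 14.96 and 8.06 in control and 170, 102 and 91.6 in knockout. Its difference was the largest of this list (3.32 ± 0.31) and rests on few reads in control.

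Slc1a5, the glutamine carrier ASCT2 that is often high in dividing cells, did not rise with the others (chromosome 7, 16781340 to 16798274). It held 1124, 1155 and 1257 in control and 874, 1026 and 1068 in knockout, and fell by 0.26 ± 0.07 on the log2 scale (limma adjusted p = 0.0040). The groups did not overlap, but the highest knockout library lay close below the lowest control library. Without the first knockout library the difference was -0.17 (limma adjusted p = 0.042). With every library scaled to the same total the call was lost (limma adjusted p = 0.98). Under that scaling the median over all tested genes was 0.26, and the difference of Slc1a5 was -0.0018. Slc7a1, the arginine and lysine carrier CAT1, rose from 951 ± 80.8 to 1423 ± 58.9 (0.58 ± 0.07). Slc7a11, the light chain xCT that exchanges cystine for glutamate, rose from 175 ± 13.2 to 264 ± 29.5 (0.58 ± 0.13, limma adjusted p = 0.00038).

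The heavy chain that these light chains share fell. Slc3a2 encodes 4F2hc, which pairs with LAT1, y+LAT2 and xCT and also with the absorptive light chains LAT2 and y+LAT1 (chromosome 19, 8706882 to 8723369). It held 9421, 9321 and 9410 in control and 5128, 5363 and 5616 in knockout (log2 difference -0.81 ± 0.04, limma adjusted p = 7.06e-14). In each library it was therefore set against its partners per kilobase of exon. The ratio of Slc3a2 to Slc7a7 was 1.17 ± 0.02 in control and 1.19 ± 0.06 in knockout, and the libraries overlapped. The ratio to Slc7a8 was 1.53 ± 0.03 and 1.64 ± 0.004. The ratio to Slc7a5 was 43.8, 43.4 and 54.2 in control and 10.2, 11.0 and 10.2 in knockout, and the ratio to Slc7a6 was 47.1 ± 1.49 and 10.1 ± 0.52. The ratio to Slc7a11 was 212 ± 15.3 and 81.1 ± 11.5. The heavy chain thus stayed the more abundant transcript beside the growth-linked light chains in every library, by a smaller margin in knockout. Of the 7 ratios computed between carriers, 6 did not overlap between the groups, each with an exact permutation p of 0.1 (0.117 after Benjamini-Hochberg adjustment), and the ratio of Slc3a2 to Slc7a7 gave an exact permutation p of 0.7.

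**Figure D2:**
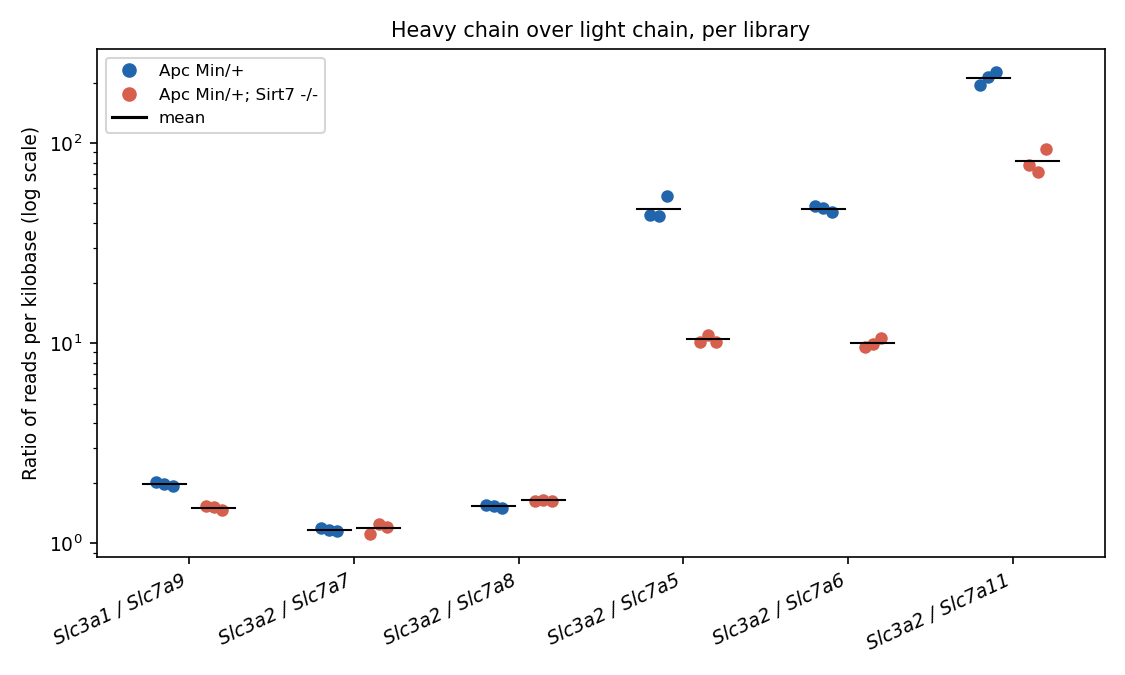
Ratio of each heavy chain transcript to its light chain transcript (log scale, reads per kilobase of exon) in the 3 control (blue) and 3 knockout (red) libraries; black lines are means. Slc3a2 stays close to Slc7a7 and Slc7a8 in both groups, and its ratio to Slc7a5, Slc7a6 and Slc7a11 is lower in knockout.

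Promoter windows are shown for 4 genes because they hold the letters of motifs of factors known from amino acid stress (ATF4) or from enterocytes (CDX and HNF4). RefSeq windows of GRCm38.p6 reach from 250 bases before to 50 bases after the annotated start, and 45 of the 60 rows had at least 1. The letters searched on both strands were TGATGNAA (the ATF4 response element), CACGTG (the E-box bound by Myc and others), ATCAAAG (TCF/LEF), TTTATNG (CDX) and CAAAGTCCA (HNF4). Matches are in capitals. Slc7a11 lies at chr3:50443564-50443863 (minus strand) with 2 ATF4 elements, Slc1a4 at chr11:20332664-20332963 (minus strand) with 1, Slc7a7 at chr14:54417895-54418194 (minus strand) with 2, and Slc3a1 at chr17:85028097-85028396 (plus strand) with 1 CDX and 1 HNF4 match.
Slc7a11 promoter: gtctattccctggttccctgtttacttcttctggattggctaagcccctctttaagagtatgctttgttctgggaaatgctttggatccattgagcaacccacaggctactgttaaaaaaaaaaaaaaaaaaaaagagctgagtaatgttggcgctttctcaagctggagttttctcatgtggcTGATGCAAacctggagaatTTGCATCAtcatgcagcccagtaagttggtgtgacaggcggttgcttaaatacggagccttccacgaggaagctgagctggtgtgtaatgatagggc
Slc1a4 promoter: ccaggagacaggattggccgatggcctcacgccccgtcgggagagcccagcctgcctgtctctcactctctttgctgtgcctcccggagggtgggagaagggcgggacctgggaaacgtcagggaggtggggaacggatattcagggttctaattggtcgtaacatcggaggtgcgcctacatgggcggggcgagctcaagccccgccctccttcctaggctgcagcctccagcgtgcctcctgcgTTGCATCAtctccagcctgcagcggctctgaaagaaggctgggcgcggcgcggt
Slc7a7 promoter: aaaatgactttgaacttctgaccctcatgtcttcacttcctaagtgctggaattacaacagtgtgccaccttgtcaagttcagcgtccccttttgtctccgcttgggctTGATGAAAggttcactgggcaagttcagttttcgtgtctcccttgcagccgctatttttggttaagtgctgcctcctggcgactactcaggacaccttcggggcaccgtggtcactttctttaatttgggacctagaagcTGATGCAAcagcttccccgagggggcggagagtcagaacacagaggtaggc
Slc3a1 promoter: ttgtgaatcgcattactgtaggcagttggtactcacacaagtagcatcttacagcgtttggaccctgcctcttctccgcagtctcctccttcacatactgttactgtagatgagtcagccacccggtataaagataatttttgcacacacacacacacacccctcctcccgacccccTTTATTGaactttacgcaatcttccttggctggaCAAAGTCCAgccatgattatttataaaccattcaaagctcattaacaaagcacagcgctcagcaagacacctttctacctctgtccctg

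The elements of Slc7a11 begin 66 and 47 bases before the start site, and that of Slc1a4 begins 4 bases before it. In the growth-linked list 2 of 7 genes with a window held the ATF4 letters (28.6%), and in the absorptive list 1 of 9 did (11.1%), beside 4.51% of all 27025 genes with a window. Slc7a7, with 2 such matches in the window shown, fell, so that the letters occurred in genes of both directions. Slc7a7 also had windows at other annotated starts. That from 54417653 held 1 of these matches, and those from 54409423, 54410154 and 54417630 held none. A gene was counted when any of its windows held the letters. The HNF4 letters were found in 1 of 9 absorptive genes with a window, Slc3a1, in 0 of 7 growth-linked ones and in 0.555% of all. The CDX letters were found in 1 of 9 absorptive genes (11.1%), again Slc3a1, in 0 of 7 growth-linked ones and in 12.5% of all. Their share in the absorptive list was thus near that of all genes. The E-box and TCF/LEF letters were each found in 0 of 9 absorptive genes and in 1 of 7 growth-linked ones (14.3%), Slc43a1 and Slc7a1, beside 8.09% and 4.29% of all. Among the remaining carriers, Slc7a15 held 2 CDX matches and Slc36a1 2 E-boxes. Slc38a7, Slc7a14, Slc1a7 and Slc6a3 held 1 E-box each, and Slc38a9, Slc1a2 and Slc38a10 1 TCF/LEF match each. Of these genes Slc38a7, Slc7a14, Slc1a7, Slc38a9 and Slc38a10 were not called. A match is a description of the letters and not a binding site, and with so few genes the shares carry no test.

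Genes of the amino acid stress response went both ways. Atf4 itself fell from 7490 ± 131 to 5494 ± 109 (log2 difference -0.45 ± 0.04). Of the 18 genes of that list 10 rose and 4 fell, with a median of 0.47, where 31.6% of all tested genes rose and 30.9% fell. The synthesis genes Psat1 and Phgdh (serine), Pycr1 (proline) and Asns (asparagine) rose by 1.03, 1.03, 1.92 and 0.51, and Vldlr, a lipoprotein receptor, by 2.67. Trib3, a pseudokinase that ATF4 induces, fell by 1.44. Among 19 genes of amino acid sensing by mTORC1, 2 rose, 8 fell and 9 did not pass (median -0.02), a smaller share called than the 62.5% of all tested genes. Sesn1, of the sestrin family of leucine sensors, fell by 0.57, the Rag GTPase gene Rragd by 0.45, the Ragulator genes Lamtor2 and Lamtor4 by 0.46 and 0.36, and Fnip1 by 0.31. The Rag GTPase gene Rraga rose by 0.38. Sesn2, another sestrin gene, which was counted in the stress response list, rose by 0.44 ± 0.12. Mtor itself was not called (0.06 ± 0.06, limma adjusted p = 0.41).

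Of the 7 carriers of endosomes and lysosomes 1 rose, 2 fell and 4 did not pass, no larger shares than the 31.6% and 30.9% of all tested genes. Slc36a1, the proton-coupled carrier PAT1 that sits in lysosomes and, in human intestine, in the brush border (chromosome 11, 55204350 to 55236330), held 9848, 10084 and 10366 in control and 3812, 3813 and 4017 in knockout. It fell further than every absorptive carrier, to 38.4% of the control mean (log2 difference -1.38 ± 0.04, limma adjusted p = 5.57e-18). Its relative Slc36a4, PAT4, rose from 153 ± 26.7 to 252 ± 47.3 (0.72 ± 0.16). Slc15a3, a lysosomal histidine and peptide carrier of immune cells, fell from 182 ± 4.45 to 112 ± 13.9 (-0.70 ± 0.15). Its exons overlap those of Tmem132a on the opposite strand, which rose from 71.4 to 377. All 5 called macrophage and dendritic cell markers of 7 fell as well (summed level 8927 to 9430 in control and 5118 to 5305 in knockout), and their part in this fall was not tested. Slc38a9, the arginine sensor of the lysosome, stood at 451 ± 47.4 and 386 ± 16.8 and missed the threshold (-0.22 ± 0.10, limma adjusted p = 0.0504). It was called lower under quantile normalization (-0.38), without the second control library (-0.29), with a filter at 50 (-0.22, limma adjusted p = 0.044) and with a pseudocount of 10 (-0.21, limma adjusted p = 0.049). Slc38a7, Slc15a4 and Slc7a14 did not pass either.

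Carriers of taurine and creatine were among the abundant ones. Slc6a8, the creatine carrier, was second in level per kilobase in both groups (6587 ± 234 in control and 3778 ± 20.2 in knockout), after Slc6a19. In normalised reads it held 32967, 34648 and 35341 in control and 19806, 19612 and 19637 in knockout, a log2 difference of -0.80 ± 0.04. Slc6a6, the taurine carrier, stood at 7880 ± 360 and 7017 ± 132, a difference of -0.17 ± 0.04. This difference turned to 0.11 under quantile normalization and to 0.088 with equal library totals, where the median over all tested genes was 0.26. Slc6a12 and Slc6a13 lay under the filter on low values.

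**Figure D3:**
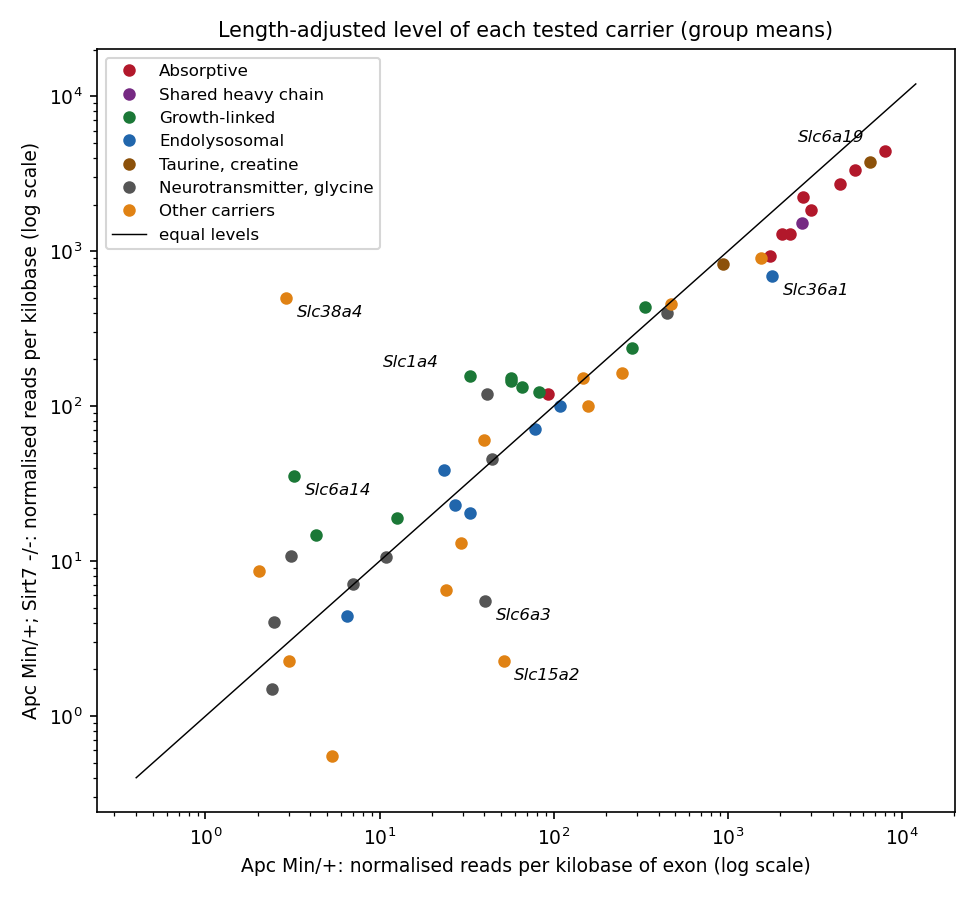
Group mean level of each tested carrier per kilobase of exon in control (x axis) and knockout (y axis), both on log scales, coloured by role; the line marks equal levels. The carriers at the upper right lie below the line, Slc38a4 lies far above it and Slc15a2 and Slc6a3 far below it.

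Carriers of transmitters and glycine showed 2 rises and 2 falls among 9 tested, smaller shares than the 31.6% and 30.9% of all tested genes. Slc6a9, the glycine carrier GlyT1 (chromosome 4, 117834506 to 117875198), held 207.5, 182 and 253 in control and 705, 559.7 and 572 in knockout (1.52 ± 0.12, limma adjusted p = 2.27e-10). Of the 5141 exonic bases of Slc6a9, 1986 overlap B4galt2 and other genes on the opposite strand, and B4galt2 was not called (62.5 in control and 69.8 in knockout). Slc1a2, the glutamate carrier GLT-1, rose from 40.7 ± 9.23 to 142 ± 26.4 (1.79 ± 0.22). Slc6a3, the dopamine carrier, held 139, 131 and 148 in control and 9.005, 22.2 and 25.8 in knockout (-2.93 ± 0.30), while Slc6a4, the serotonin carrier of enterocytes and neurons, stood at 2026 ± 50.4 and 1813 ± 41.8 (-0.16 ± 0.05, limma adjusted p = 0.0083). The call for Slc6a4 was lost under quantile normalization (-0.09). The sign of its difference turned with equal library totals (0.0941), where the median over all tested genes was 0.26. Of 8 neuron and glia markers 1 rose and 4 fell, with a summed level of 765 to 821 in control and 716 to 783 in knockout. Slc1a3, Slc1a7, Slc6a7, Slc6a15 and Slc6a17 did not pass.

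The widest changes lay among the remaining carriers. Of these, 3 of 13 tested rose and 7 fell, beside 31.6% higher and 30.9% lower among all tested genes. Slc38a4, the system A carrier SNAT4 known from liver, muscle and placenta (chromosome 15, 96994820 to 97055956), held 14.5, 10.7 and 12.1 in control and 2293, 2039 and 2050 in knockout. All 3 knockout libraries were thus more than 100 times the highest control library, and the ratio of means was 171 (log2 difference 7.32 ± 0.14, limma adjusted p = 3.54e-21). Per kilobase it moved from 2.91 ± 0.45, among the lowest of the carriers, to 499 ± 33.7, above every growth-linked carrier. In the same libraries the 8 markers of gastric and Brunner gland epithelium summed to 23.2 to 33.0 in control and 21729 to 23297 in knockout, and the 10 pancreatic acinar markers to 228 to 256 and 2113 to 2676. Their part in the rise of Slc38a4 was not tested.

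Slc15a2, the high-affinity peptide carrier PepT2 (chromosome 16, 36750177 to 36784962), had the deepest fall among the 51 tested carriers. It held 426, 354 and 360 in control and 17.1, 12.1 and 21.0 in knockout, so that 4.40% of the control mean remained (-4.45 ± 0.21, limma adjusted p = 2e-14). The ratio of Slc15a1 to Slc15a2 per kilobase was 86.1 ± 8.80 in control and 1258 ± 346 in knockout. All 8 B cell markers fell too (median -4.08, summed level 6258 to 7039 in control and 493 to 734 in knockout), and their part in the fall of Slc15a2 was not tested. Slc7a15, a carrier of aromatic amino acids that has no working counterpart in human, fell from 4642 ± 66.7 to 2711 ± 192 (-0.78 ± 0.05). Slc6a18, a relative of Slc6a19 known from kidney, fell from 106 ± 25.04 to 28.6 ± 2.29 (-1.83 ± 0.24), and the proton-coupled carrier Slc36a2 from 94.9 ± 19.7 to 42.6 ± 4.01 (-1.12 ± 0.22). Slc43a3, a carrier of purine bases in spite of its family, fell by 0.65 ± 0.08, and Slc7a4 rose by 0.60 ± 0.13. Slc7a3 and Slc38a8 were called on fewer than 50 normalised reads in the higher group (1.93 ± 0.44 and -3.002 ± 0.67), and Slc38a8 ranged from -3.53 without the second knockout library to -2.37 without the third. Slc38a6, Slc38a10 and Slc7a2 did not pass.

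**Figure D4:**
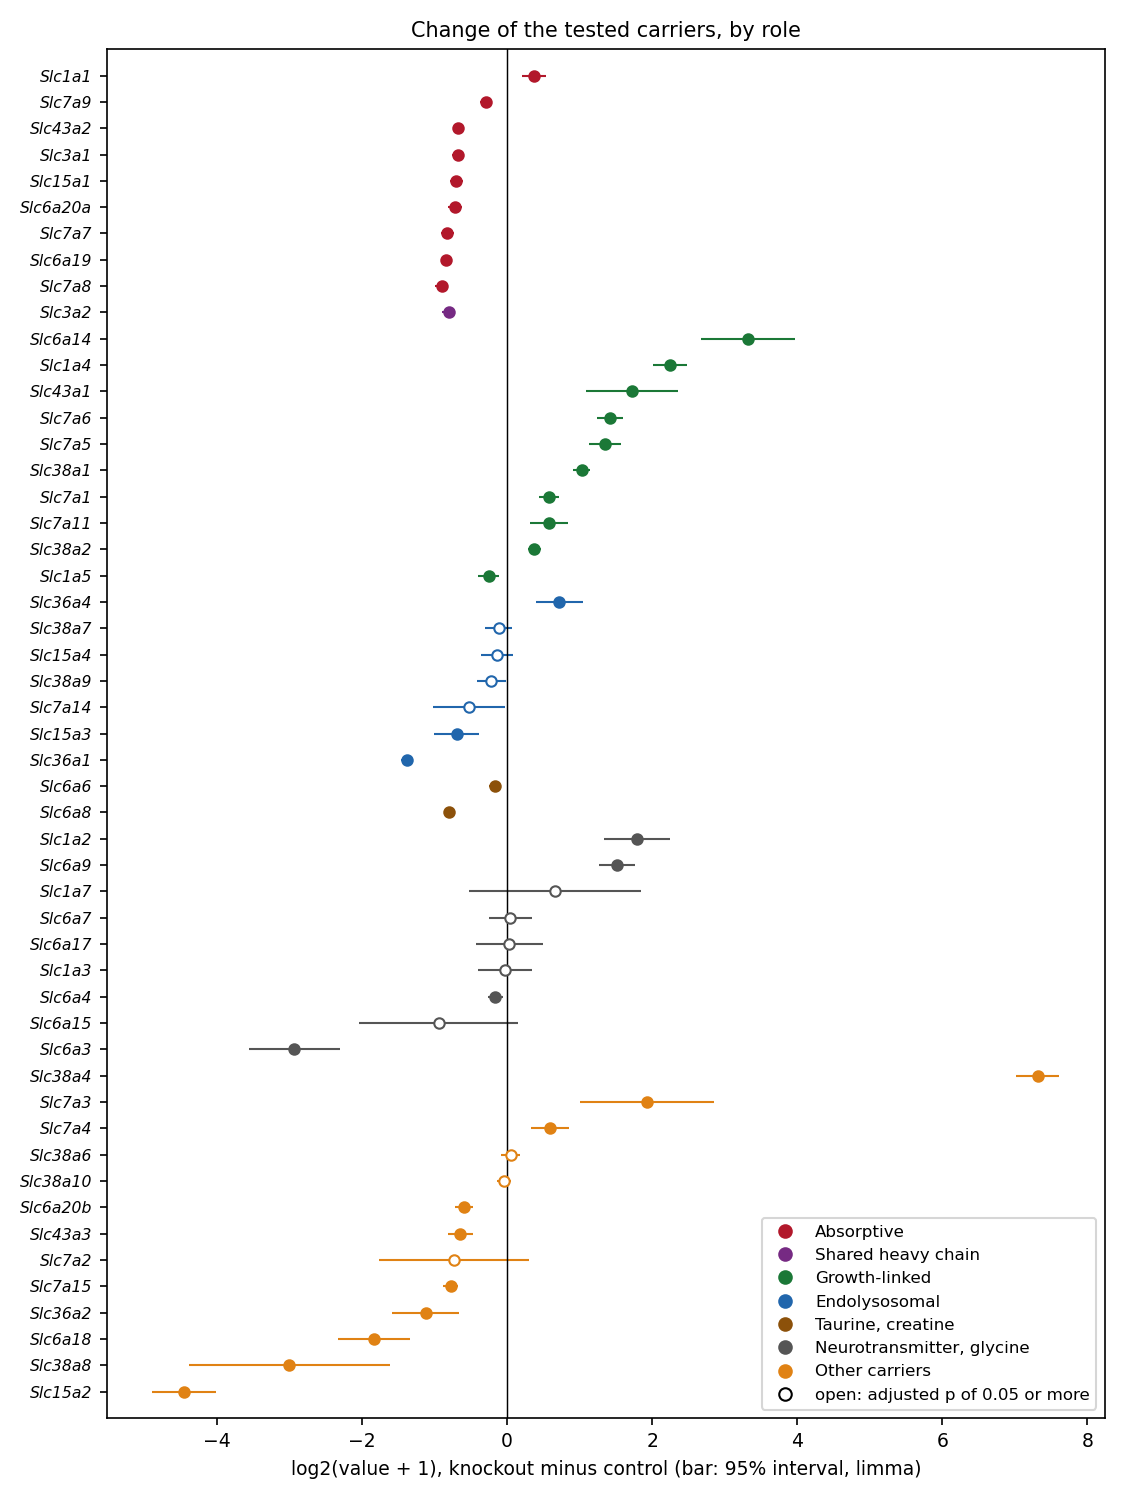
Log2 difference (knockout minus control, log2(value + 1) scale) of the 51 tested carriers with its 95% interval from limma, ordered within each role; open circles did not pass an adjusted p of 0.05. Growth-linked carriers lie right of 0 except Slc1a5, and absorptive ones left of 0 except Slc1a1.

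Over all 51 carriers that passed the filter on low values, 16 rose, 23 fell and 12 did not pass, beside 31.6% higher and 30.9% lower among all tested genes. The share that rose was thus near that of all genes. By family, Slc15 gave 3 falls and no rise among 4, Slc3 2 falls of 2, and Slc6 8 falls and 2 rises among 13. In Slc1 3 rose and 1 fell of 6, in Slc38 3 rose and 1 fell of 8, and in Slc7, with Slc7a6os, 7 rose and 4 fell of 13. Counts by level were as follows. Of the 22 carriers with a mean of at least 1000 normalised reads 16 fell and 4 rose, while of all genes above that level 50.5% fell and 26.2% rose. Of the 30 rows below it, Slc7a6os included, 7 fell and 13 rose, beside 22.1% and 34% of all tested genes there. The groups did not overlap for 42 of the 52 tested rows, 17 with knockout above and 25 below, beside 66.5% of all tested genes (33.5% above and 33.1% below). Differences of more than 2-fold were called higher in 10 rows and lower in 6, beside 9.77% and 6.88% of all tested genes.

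**Figure D5:**
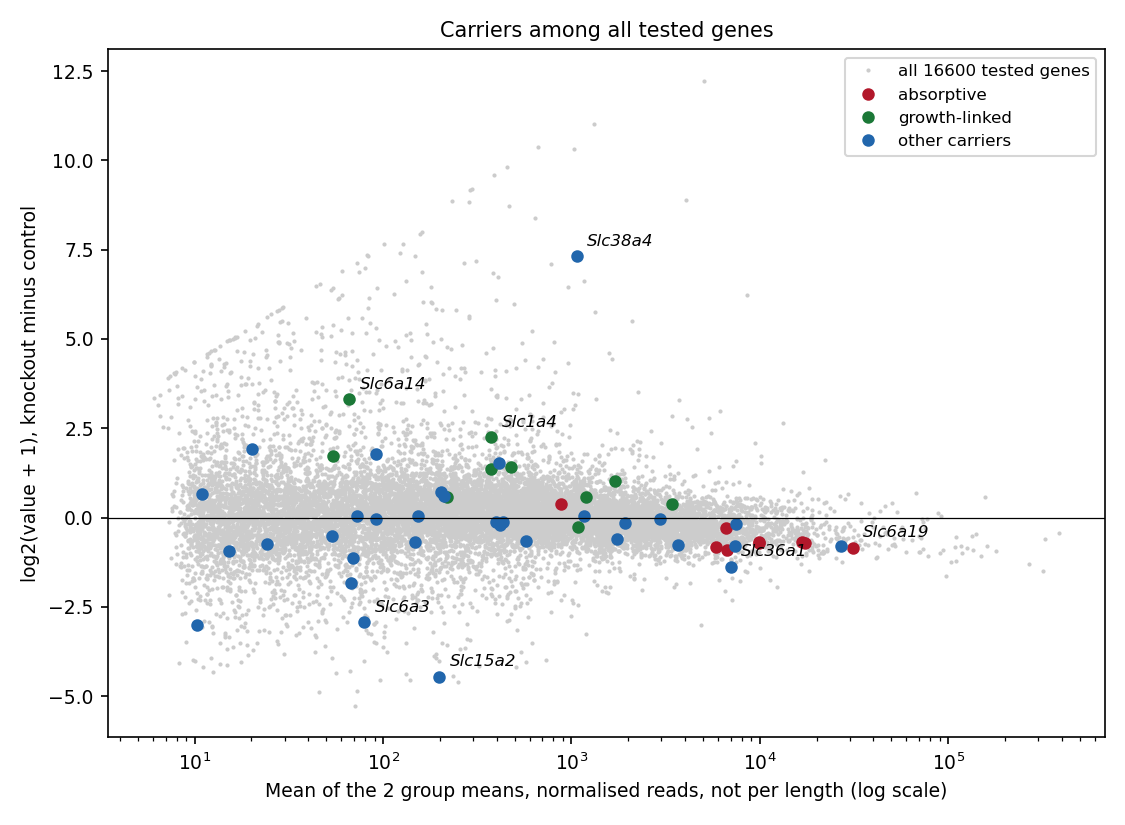
Log2 difference (knockout minus control) against mean normalised reads (log scale, not per length) for all 16600 tested genes (grey) and for the absorptive (red), growth-linked (green) and other carriers (blue). Carriers with the most reads lie below 0. Slc38a4 and Slc15a2 lie far from 0, inside the range of all tested genes (-5.28 to 12.23).

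The 8 rows under the filter were Slc36a1os, Slc36a3, Slc38a3, Slc38a11, Slc6a5, Slc6a12, Slc6a13 and Slc7a10, and none was tested. Slc7a10, a carrier of small neutral amino acids known from brain and fat, had 27 reads over the control libraries and 0 over the knockout libraries, at least 9.73-fold lower when the knockout group is set to a total of 3 reads. All 5 adipocyte markers fell in the same comparison (median -4.18). Slc6a5, the glycine carrier GlyT2, had 0 reads in control and 30 in knockout, at least 9.23-fold higher by the same floor. These floors cover counting error only. In the authors' deposited table, 18 of the 60 rows were higher and 24 lower at an adjusted p under 0.05. Slc6a5, Slc6a12 and Slc7a10, not tested here, are among them. The share over all rows of that table is not given here, so these counts set the carriers apart from no other genes. DESeq2 on recovered reads called 4980 of all 16600 tested genes higher and 4926 lower.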

How the data were processed

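The authors deposited a table of signal values, 1 column for each library, holding read counts over a size factor. Per the file headers it also gave a log2 fold change with its SE, a Wald score and p-values with adjusted p-values. The submitters' processing notes name mm10 together with HTSeq 0.6.1p1, TopHat2 2.1.1, TopHat, DESeq2 and FastQC. They give no roles, and the strand setting is not given in the sources used here. RNA was taken up in Trizol and libraries made with a TruSeq kit, per the labels' protocols.

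Dividing each column by its smallest step gave whole reads for 100% of values, to within 0.01. The test took genes that reached 10 in 3 or more of the 6 libraries. Genotypes were compared on log2(value + 1) with limma 3.58.1 in R 4.3.3 (trend, robust, two-sided, no covariate), and p-values were adjusted over all tested genes by Benjamini-Hochberg. Folds on this scale understate changes of low genes. The fit was tested on simulated data. Alternatives included edgeR 4.0.16 (quasi-likelihood) and DESeq2 1.42.0 on recovered reads. The members, role lists, motifs and partner ratios were chosen with earlier results of these data known. Named genes were all absorptive, growth-linked and heavy chain members, called members of other roles whose larger group mean reached 50, and up to 6 genes of smallest p in each companion list, of which some are not reported here. Slc16a10, Mep1a, Asns, Sesn2, Mtor, overlapping neighbours and other members given with values were added after their values were seen. Positions and exon lengths are from GENCODE M21 (GRCm38), matched by symbol for 60 of 60 rows.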

Additional observations from a re-analysis of the deposited data

How the results depend on the processing

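The counts of called carriers and their relatives by symbol (17 rows higher and 23 lower, 8 of 9 absorptive carriers lower, 9 of 10 growth-linked carriers higher) moved little: 16 to 19 higher, 19 to 24 lower, 7 or 8 absorptive and 9 growth-linked under edgeR, DESeq2, quantile normalization, TMM scaling, pseudocounts of 0.5 and 10, a filter at 50, no filter, no robust estimation, leaving out each library in turn, and equal library totals, an alternative added after the data were seen. Over all 16600 tested genes, limma with the deposited size factors called 5248 higher and 5133 lower. Quantile normalization gave 4751 and 5489, and equal library totals gave 8248 and 2896. With Slc36a1 and Slc3a2 counted as absorptive, 10 fell, and with Slc3a2 counted as growth-linked, 9 still rose. The sizes of some falls moved more. Across all settings but equal totals, the log2 difference of Slc6a19 ranged from -0.85 to -0.375 and that of Slc15a1 from -0.75 to -0.37. Slc43a2 ranged from -0.69 to -0.34, Slc3a1 from -0.70 to -0.42 and Slc6a8 from -0.83 to -0.37. Slc7a8 (-0.94 to -0.68) and Slc7a7 (-0.85 to -0.60) moved less. Equal totals raised the median of all genes from 0.01 to 0.26, because the deposited totals were 29815648 to 30180827 in control and 24908995 to 25381988 in knockout. Differences under that scaling are to be read relative to 0.26. Under it Slc38a10 turned from -0.05 to 0.21, Slc6a4 from -0.16 to 0.0941 and Slc6a6 from -0.17 to 0.088, and quantile normalization turned Slc6a6 to 0.11. The turns under equal totals came with that rise of the median of all genes, and the cause of the turn under quantile normalization was not tested. For 39 of 52 tested rows no alternative that tested the row changed the call or turned a called difference. Among these, Slc1a7, Slc7a3 and Slc38a8 lay under the filter at 50 and were not tested there. Also among the 39 rows, the uncalled differences of Slc1a3, Slc6a7 and Slc6a17 turned sign in some alternatives. Slc15a4, Slc38a7, Slc38a9 and Slc7a14 were called lower under quantile normalization, Slc38a6 higher (0.30) with equal totals, Slc6a15 without the third knockout library (-1.50) and Slc7a2 without the second (-1.36). Slc7a6os lost its call under DESeq2, quantile normalization and without 4 of the 6 libraries. With the replicate number as a block, 17 rows were higher and 23 lower. Same-numbered libraries did not deviate together (correlations 3e-04, 0.04 and -0.01), so the numbers do not pair the samples. Carriers with few reads, such as Slc6a14, Slc43a1 and Slc7a3, have wide intervals at this depth.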
